A study of Mus musculus with 9 samples.

Results

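DNA replication and S phase genes were followed in CD11b+ myeloid cells sorted from brain hemispheres that carried a GL261 glioma. The 42 members were chosen by gene symbol to cover replication licensing, the replication fork, nucleotide supply with its associated repair and the G1/S transition, and were looked up by Ensembl identifier among the 53801 genes of the count table. All 42 were found, and all 42 were among the 12538 protein-coding genes with enough counts to be tested. RNA was measured in 9 strand-specific poly-A libraries. Male C57BL/6J mice, 10 to 12 weeks old at the start, carried GL261 mouse glioma cells expressing tdTomato and luciferase in the right striatum in all 4 groups. The CTR mice were given saline (2 libraries). OAT-1746, an oral inhibitor of arginase 1 and 2, was given alone at 50 mg/kg per dose (2 libraries). An antibody against PD-1, an inhibitory receptor best known from T cells, was given alone at 2.5 mg/kg (anti-PD-1, 2 libraries), and the COMB mice received both agents (3 libraries). For anti-PD-1 replicate 2 the label of the treatment reads anti-PD-2, and the library was grouped by its title, which matches that of replicate 1. Collection of the cells is placed at day 28 after implantation in the study's methods and at day 21 in a figure legend. The libraries held 13048075 to 18796479 counted read pairs, of which 8162 to 17376 fell on the members. Levels are given as CPM, counts scaled to a common library size with TMM normalization, and ± marks the standard error of a fitted log2 fold change. The methods call the samples biological replicates, but the labels do not name animals, so p-values here measure the spread between these libraries.

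A cell copies its DNA in steps that these genes serve. In G1 the origin recognition complex, CDC6 and CDT1 load the MCM ring onto origins, and at the start of S phase CDC45 and the GINS complex turn that ring into the active helicase. Primase and the replicative polymerases then copy each strand on the PCNA clamp, ribonucleotide reductase and thymidylate synthase supply the deoxynucleotides, and E2F factors with cyclin E switch the program on. Microglia, the resident macrophages of the brain, divide slowly in healthy tissue and more often around tumors, while monocytes enter the tumor from the blood, and both carry CD11b. In bulk RNA, fewer cycling cells and less of these transcripts per cell cannot be told apart.

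The libraries carried the marker genes of the sort. Itgam, which encodes CD11b, lay between 294 and 446 CPM and Csf1r, the receptor that macrophages need for survival, between 6299 and 11551 CPM across the 9 libraries. Cd3e, a defining gene of T cells, was at most 0.528 CPM, and 8 genes of glioma and neural progenitor cells summed to 14.5 to 28.8 CPM. Markers of other brain cells were present at low levels, with sums of 84.1 to 244 CPM for 5 oligodendrocyte genes, 63.0 to 202 CPM for 5 astrocyte genes and 120.3 to 183 CPM for 5 endothelial genes. OAT-1746 replicate 2 stood apart from the rest. Across the tested genes, Pearson correlations of its log2 CPM with each remaining library ran from 0.911 to 0.956. The summed level of 10 monocyte and macrophage markers (among them Lyz2, Ccr2 and Tgfbi) was 13561 and 12217 CPM in CTR, 9012 and 1893 in OAT-1746, 11065 and 14164 in anti-PD-1 and 9650.2, 11639 and 12209 in COMB. Thus OAT-1746 replicate 2 was lowest by a wide margin, with all 10 markers below their CTR mean but none at 0, whereas OAT-1746 replicate 1 lay close to COMB replicate 1. Medians without OAT-1746 replicate 1 and without replicate 2 are therefore given for the gene groups compared between OAT-1746 and CTR. The promoter sets and the cell marker lists are exceptions. Such medians are also given for the 42 members in the other comparisons that use these libraries.

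The replication genes were lowest in the OAT-1746 libraries. Summed over the 42 members, the level was 1044 and 963 CPM in CTR, 683 and 467 in OAT-1746, 742 and 873 in anti-PD-1 and 799, 932 and 902 in COMB. Both OAT-1746 libraries lay below the other 7, and the 2 CTR libraries lay highest. As a median over the members, log2 CPM minus the CTR mean was 0.10 and −0.10 in CTR, −0.71 and −1.55 in OAT-1746, −0.63 and −0.18 in anti-PD-1 and −0.36, −0.19 and −0.14 in COMB, while the same median over all tested genes stayed between −0.04 and 0.03. An OAT-1746 library was the lowest of the 9 for 40 of the 42 members, and for 36 of them it was replicate 2. The share of all tested genes with such a lowest library was not computed. Each of the 2 OAT-1746 libraries took part in the shift, since 38 members lay below the CTR mean in both. Of the 12538 tested genes, 6335 lay below it in replicate 1 and 6078 in replicate 2. However, 37 of the 42 members were lower in replicate 2 than in replicate 1, against 49.7% of all tested genes. The median difference over all 42 was 0.89 on the log2 scale. The percentage of counts from the mitochondrial genome, a coarse sign of RNA or cell quality, was also higher with OAT-1746, at 2.46 and 2.26 against 0.779 to 1.61 in the other libraries, and its part in the result was not tested.

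**Figure D1:**
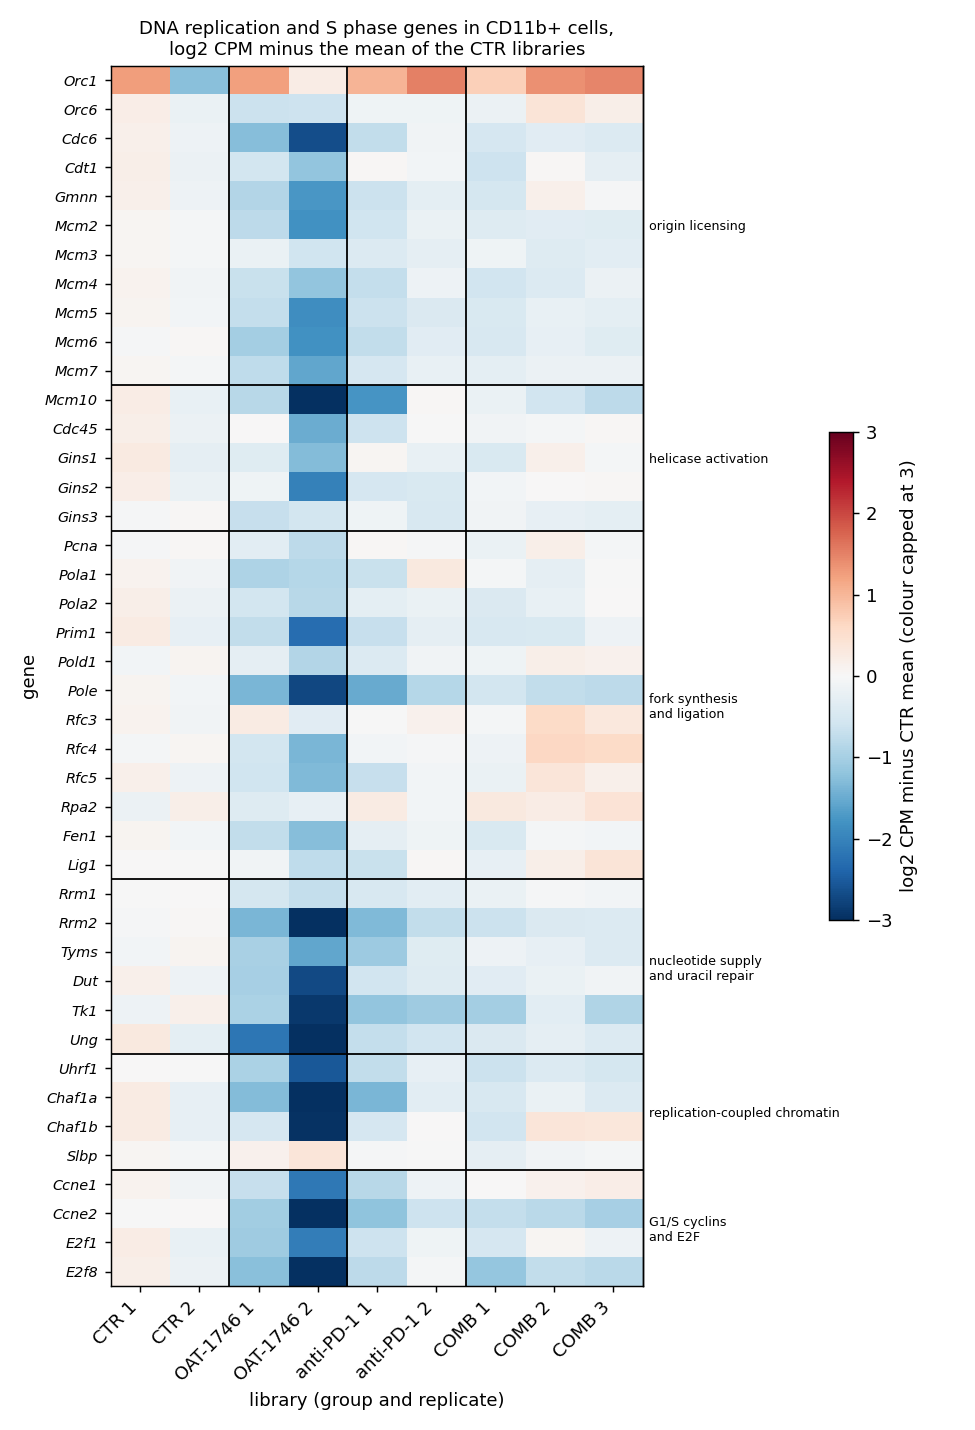
Each cell is 1 member (row, grouped by role) in 1 library (column), coloured by log2 CPM minus the mean of the 2 CTR libraries, with colours capped at 3. The OAT-1746 columns are blue for most members and replicate 2 is the darkest, with medians of −0.71 and −1.55, whereas Slbp stays pale red and Orc1, at under 1 CPM, is dominated by counting error.

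The first comparison asked what the arginase inhibitor alone did. Relative to CTR, 40 of the 42 members had a negative log2 fold change in OAT-1746 (39 with scaling by library size only), with a median of −1.04 and a range from −2.70 (Ung) to 0.43 (Orc1), where the median of all tested genes was 0.01. In edgeR's quasi-likelihood test 31 of the 42 were lower at an unadjusted p under 0.05, a criterion that 16.2% of all tested genes met. The 2 groups were fully separated, with OAT-1746 the lower, for 37 of the 42, against 32.1% of all tested genes. After Benjamini-Hochberg adjustment over the 12538 genes, 0 of the 42 had an edgeR adjusted p under 0.05, as did 0% of all tested genes, and the smallest was 0.0599. DESeq2 called 26 of the 42, all of them lower, and 15.9% of all tested genes in either direction, and limma voom called 0. The edgeR count was 34 without OAT-1746 replicate 1 (28.2% of all tested genes), 2 without COMB replicate 1 (2.23%), and 0 without any other library. The median was −1.58 without OAT-1746 replicate 1 and −0.72 without replicate 2.

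**Figure D2:**
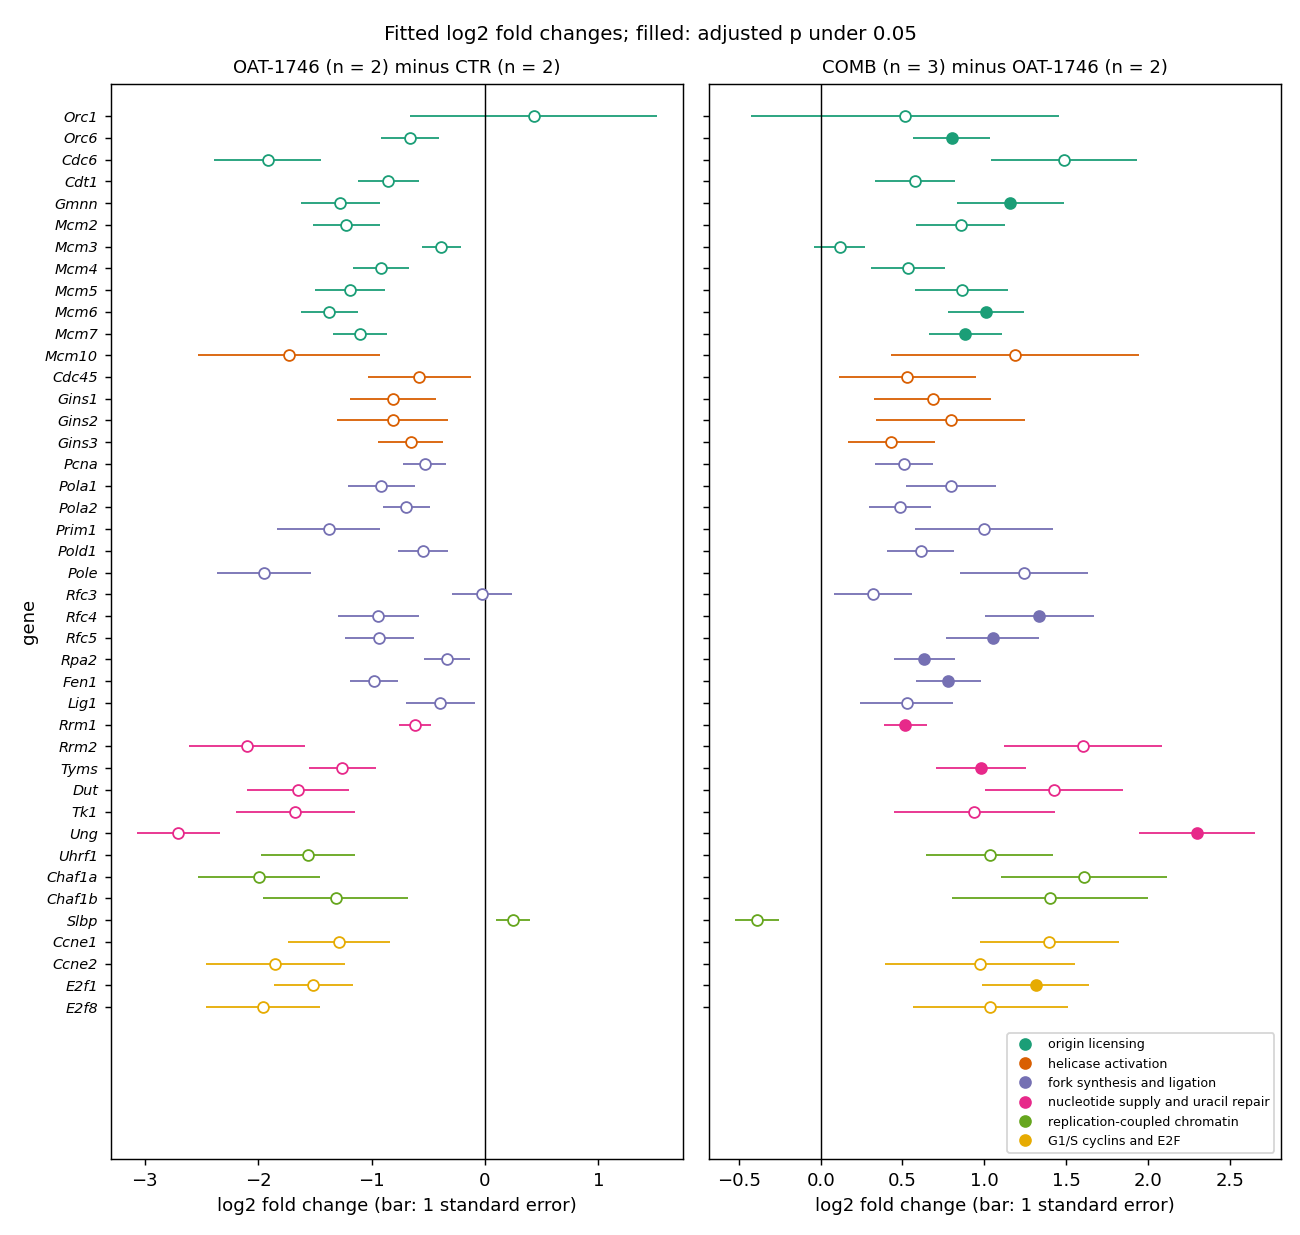
Points are fitted log2 fold changes of the 42 members, coloured by role, with bars of 1 standard error, for OAT-1746 minus CTR (left) and COMB minus OAT-1746 (right). Filled points have an edgeR adjusted p under 0.05, 0 on the left and 12 on the right, and both panels use the same 2 OAT-1746 libraries.

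Origin licensing was represented by 11 members. In OAT-1746 relative to CTR their log2 fold changes had a median of −1.10 (−1.56 without OAT-1746 replicate 1 and −0.72 without replicate 2). Of them, 9 were lower at an unadjusted p under 0.05, against 16.2% of all tested genes. Mcm6 (ENSMUSG00000026355, chr1:128331590-128359664), a subunit of the MCM ring, was at 70.9 and 74.8 CPM in CTR, 35.6 and 20.7 in OAT-1746, 43.6 and 57.99 in anti-PD-1 and 52.4, 61.4 and 56.3 in COMB. Both OAT-1746 libraries were below every other library, with replicate 1 nearest to anti-PD-1 replicate 1. Its log2 fold change was −1.37 ± 0.25 (edgeR adjusted p = 0.06101). Mcm3 (ENSMUSG00000041859, chr1:20802968-20820312), another subunit of the same ring, was at 111 and 103 CPM in CTR, 92.8 and 71.01 in OAT-1746, 80.3 and 88.4 in anti-PD-1 and 98.5, 82.2 and 85.6 in COMB. Here OAT-1746 replicate 1 lay inside the range of COMB, and the log2 fold change against CTR was −0.39 ± 0.17 (edgeR adjusted p = 0.155). Mcm7 (ENSMUSG00000029730, chr5:138164583-138172422) was at 43.4 and 40.3 CPM in CTR, 24.8 and 14.2 in OAT-1746, 29.5 and 35.6 in anti-PD-1 and 34.04, 36.8 and 37.1 in COMB, and thus resembled Mcm6, with a log2 fold change of −1.10 ± 0.24 (edgeR adjusted p = 0.06102). Gmnn (ENSMUSG00000006715, chr13:24751845-24761923) encodes geminin, which binds CDT1 and prevents a second round of licensing. Its level was 9.73 and 7.82 CPM in CTR, 4.71 and 2.52 in OAT-1746, 5.505 and 7.04 in anti-PD-1 and 6.01, 9.701 and 8.51 in COMB, and its log2 fold change was −1.28 ± 0.35 (edgeR adjusted p = 0.0712). Orc6 (ENSMUSG00000031697, chr8:85299632-85308278), the smallest subunit of the origin recognition complex, was at 8.59 and 6.47 CPM in CTR, 4.71 and 4.81 in OAT-1746, 6.83 and 6.82 in anti-PD-1 and 6.601, 9.77 and 8.51 in COMB, so that its OAT-1746 libraries were lower than the rest (−0.66 ± 0.25, edgeR adjusted p = 0.118). Mcm2, Mcm4, Mcm5, Cdc6 and Cdt1 were likewise lower in OAT-1746 at an unadjusted p under 0.05. Orc1 could not be read, since it had 0 to 13 counts per library. Cdt1 lies on the same strand as an overlapping protein-coding gene model, Gm20388, so read pairs could be lost to ambiguity and its values are uncertain.

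Of the licensing members with a promoter in the RefSeq table and an E2F word in it, Mcm3 had the highest level, and its promoter is printed because E2F factors are known to drive this set of genes. The window runs from 250 bases before to 50 after the annotated start (GRCm38.p6, chr1:20820263-20820562, minus strand) and is written 5′ to 3′ on the strand of the gene. Capitals mark the words searched, TTTCCCGC, TTTCGCGC, TTTGCCGC and TTTGGCGC on either strand.
Mcm3: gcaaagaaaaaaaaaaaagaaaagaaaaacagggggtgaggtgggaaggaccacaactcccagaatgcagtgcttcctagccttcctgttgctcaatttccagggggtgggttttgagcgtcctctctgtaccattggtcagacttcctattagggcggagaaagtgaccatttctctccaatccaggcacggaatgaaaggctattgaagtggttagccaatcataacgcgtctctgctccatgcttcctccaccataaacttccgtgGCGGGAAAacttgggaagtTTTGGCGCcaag
The window held 2 words within the first 50 transcribed bases, the first of them on the opposite strand (GCGGGAAA as printed) and the second as TTTGGCGC.

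Helicase activation was covered by 5 members, with a median log2 fold change of −0.81 (−1.56 without OAT-1746 replicate 1 and −0.40 without replicate 2). Only 1 of them, Gins3, was lower at an unadjusted p under 0.05, a count near the share of 16.2% among all tested genes. Gins2 (ENSMUSG00000031821, chr8:120578633-120589304), a subunit of the GINS complex, was at 8.59 and 6.41 CPM in CTR, 6.81 and 1.72 in OAT-1746, 5.16 and 5.35 in anti-PD-1 and 7.05, 7.46 and 7.66 in COMB. A single library, OAT-1746 replicate 2, was low, while replicate 1 lay between the CTR libraries. The log2 fold change was accordingly −0.82 ± 0.49 (edgeR adjusted p = 0.265). Gins3, which belongs to the same complex, was at 3.66 and 3.88 CPM in CTR, 2.27 and 2.52 in OAT-1746, 3.41 and 2.65 in anti-PD-1 and 3.49, 3.17 and 3.05 in COMB, with the lowest values in the OAT-1746 libraries by a small margin. The promoter of Gins3 (GRCm38.p6, chr8:95633309-95633608, plus strand) is printed as the only one of the helicase genes in the table with an E2F word, which again lies on the opposite strand.
Gins3: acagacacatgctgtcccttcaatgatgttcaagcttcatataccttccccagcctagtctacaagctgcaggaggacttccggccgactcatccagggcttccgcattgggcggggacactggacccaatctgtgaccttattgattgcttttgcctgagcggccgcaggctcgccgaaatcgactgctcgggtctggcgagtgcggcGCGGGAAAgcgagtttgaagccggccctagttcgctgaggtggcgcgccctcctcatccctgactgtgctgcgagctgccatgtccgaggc
Mcm10, which loads the polymerase, was at 5.17 and 3.71 CPM in CTR, 2.39 and 0.286 in OAT-1746, 1.18 and 4.51 in anti-PD-1 and 3.78, 2.904 and 2.48 in COMB, so that anti-PD-1 replicate 1 was low beside OAT-1746 replicate 2.

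Fork synthesis and ligation had 12 members, with a median log2 fold change of −0.80 (−0.88 without OAT-1746 replicate 1 and −0.55 without replicate 2). Among them, 9 were lower at an unadjusted p under 0.05, against 16.2% of all tested genes. Pcna (ENSMUSG00000027342, chr2:132249162-132253314) encodes the sliding clamp that holds the polymerases on DNA and had the highest mean CPM of all members over the 9 libraries. In CTR replicate 1 and both OAT-1746 libraries Mcm3 was higher. The level of Pcna was 111 and 117 CPM in CTR, 91.6 and 66.2 in OAT-1746, 116 and 111 in anti-PD-1 and 99.1, 128 and 109.7 in COMB. Only the OAT-1746 libraries were below 99 CPM, and the difference was moderate (−0.53 ± 0.19, edgeR adjusted p = 0.102). Pole (ENSMUSG00000007080, chr5:110286306-110337474), the catalytic subunit of the leading-strand polymerase epsilon, was at 11.2 and 10.1 CPM in CTR, 4.02 and 1.49 in OAT-1746, 3.62 and 5.804 in anti-PD-1 and 7.19, 6.27 and 6.097 in COMB. Every treated library lay below both CTR libraries, and the log2 fold change in OAT-1746 was −1.95 ± 0.41 (edgeR adjusted p = 0.06101). Fen1 (ENSMUSG00000024742, chr19:10199132-10204169), the flap nuclease that trims Okazaki fragments, was at 45.7 and 41.3 CPM in CTR, 26.1 and 17.97 in OAT-1746, 35.9 and 39.6 in anti-PD-1 and 31.4, 41.4 and 40.7 in COMB and differed by −0.98 ± 0.21 on the log2 scale (edgeR adjusted p = 0.06102). The clamp loader was represented by 3 subunits. Rfc4 (ENSMUSG00000022881, chr16:23113943-23127737) was at 5.35 and 5.76 CPM in CTR, 3.73 and 2.06 in OAT-1746, 5.23 and 5.41 in anti-PD-1 and 4.97, 8.64 and 8.29 in COMB, and Rfc5 (ENSMUSG00000029363, chr5:117378103-117389047) was at 24.5 and 19.6 CPM in CTR, 14.4 and 8.698 in OAT-1746, 13.4 and 20.8 in anti-PD-1 and 19.1, 28.2 and 24.5 in COMB. In both genes the OAT-1746 libraries were lower than CTR, although for Rfc5 OAT-1746 replicate 1 lay above anti-PD-1 replicate 1, and the log2 fold changes were −0.94 ± 0.36 and −0.93 ± 0.31 (edgeR adjusted p = 0.115 and 0.0891). Rfc3 (ENSMUSG00000033970, chr5:151642756-151651242), a further subunit of the loader, was at 11.8 and 10.2 CPM in CTR, 12.98 and 8.64 in OAT-1746, 10.9 and 12.003 in anti-PD-1 and 10.5, 16.3 and 13.7 in COMB. Its OAT-1746 libraries lay on either side of CTR, the log2 fold change was −0.03 ± 0.26 (edgeR adjusted p = 0.953), and its sign turned with scaling by library size only (0.05), without CTR replicate 1 (0.10) and without OAT-1746 replicate 2 (0.25). Rpa2 (ENSMUSG00000028884, chr4:132768332-132778752), a subunit of the complex that coats single-stranded DNA, was at 10.6 and 13.6 CPM in CTR, 9.196 and 10.1 in OAT-1746, 14.4 and 11.3 in anti-PD-1 and 14.9, 13.99 and 15.95 in COMB and had a log2 fold change of −0.33 ± 0.20 (edgeR adjusted p = 0.27002). Its OAT-1746 libraries lay just below CTR replicate 1, and its COMB libraries lay above CTR. Pola1, Pola2, Prim1 and Pold1, all subunits of polymerases or primase, were lower at an unadjusted p under 0.05, and Lig1, the ligase that seals the lagging strand, was not. Pold1, the catalytic subunit of polymerase delta, was at 28.4 and 31.3 CPM in CTR, 24.6 and 16.2 in OAT-1746, 22.4 and 27.8 in anti-PD-1 and 27.4, 33.5 and 32.5 in COMB and was the fork gene of highest level with an E2F word in its promoter (GRCm38.p6, chr7:44548766-44549065, minus strand), close to the end of the window and on the opposite strand.
Pold1: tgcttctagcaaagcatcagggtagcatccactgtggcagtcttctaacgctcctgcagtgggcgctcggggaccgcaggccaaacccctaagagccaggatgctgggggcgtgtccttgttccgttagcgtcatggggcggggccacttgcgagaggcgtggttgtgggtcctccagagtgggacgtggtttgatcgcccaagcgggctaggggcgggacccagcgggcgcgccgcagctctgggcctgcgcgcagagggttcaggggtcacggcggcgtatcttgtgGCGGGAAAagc

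Nucleotide supply and uracil repair had a median log2 fold change of −1.66 (−2.92 without OAT-1746 replicate 1 and −0.99 without replicate 2). All 6 members were lower in OAT-1746 at an unadjusted p under 0.05, against 16.2% of all tested genes. Rrm1 (ENSMUSG00000030978, chr7:102441695-102469771) and Rrm2 (ENSMUSG00000020649, chr12:24708241-24714146) encode the large and the small subunit of ribonucleotide reductase. Rrm1 was at 57.7 and 58.6 CPM in CTR, 40.3 and 35.5 in OAT-1746, 41.5 and 46.8 in anti-PD-1 and 50.8, 56.8 and 55.2 in COMB. Rrm2 was at 12.97 and 13.6 CPM in CTR, 5.06 and 1.14 in OAT-1746, 5.23 and 7.95 in anti-PD-1 and 8.46, 9.83 and 9.996 in COMB. In both genes every OAT-1746 library lay below every other library, but the difference was −0.62 ± 0.14 for Rrm1 and −2.10 ± 0.51 for Rrm2 on the log2 scale (edgeR adjusted p = 0.06199 and 0.0644). Of the pair, the small subunit is the one whose amount is known to follow the cell cycle. Tyms (ENSMUSG00000025747, chr5:30058202-30073617), the enzyme that makes thymidylate, was at 11.3 and 12.8 CPM in CTR, 6.05 and 4.01 in OAT-1746, 5.57 and 9.298 in anti-PD-1 and 10.8, 10.03 and 9.003 in COMB, with OAT-1746 replicate 1 close to anti-PD-1 replicate 1, and had a log2 fold change of −1.26 ± 0.29 (edgeR adjusted p = 0.06199). Ung (ENSMUSG00000029591, chr5:114130386-114139323) encodes the glycosylase that removes uracil from DNA and had the largest difference of all members. It was at 8.89 and 5.88 CPM in CTR, 1.51 and 0.744 in OAT-1746, 4.39 and 4.85 in anti-PD-1 and 5.34, 6.01 and 5.39 in COMB, from 13 to 148 counts per library. Both OAT-1746 libraries were well below the other 7, and the log2 fold change was −2.70 ± 0.37 (edgeR adjusted p = 0.0599). Dut, which removes dUTP from the pool, was at 10.3 and 8.23 CPM in CTR, 4.598 and 1.32 in OAT-1746, 6.13 and 6.99 in anti-PD-1 and 7.27, 8.05 and 8.51 in COMB. Tk1, which salvages thymidine, was at 8.29 and 10.4 CPM in CTR, 4.71 and 1.14 in OAT-1746, 4.04 and 4.34 in anti-PD-1 and 4.52, 7.39 and 4.89 in COMB, so that in both genes OAT-1746 replicate 2 was the lowest by far.

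Replication-coupled chromatin was covered by 4 members with a median log2 fold change of −1.44 (−2.86 without OAT-1746 replicate 1 and −0.74 without replicate 2). Of these members 2, Uhrf1 and Chaf1a, were lower at an unadjusted p under 0.05, against 16.2% of all tested genes. Chaf1a (ENSMUSG00000002835, chr17:56040439-56072289), a subunit of the chromatin assembly factor that deposits histones behind the fork, was at 9.97 and 6.94 CPM in CTR, 3.32 and 0.916 in OAT-1746, 3.14 and 6.65 in anti-PD-1 and 5.93, 7.19 and 6.24 in COMB. OAT-1746 replicate 2 was lowest and anti-PD-1 replicate 1 was as low as OAT-1746 replicate 1, and the log2 fold change was −2.00 ± 0.54 (edgeR adjusted p = 0.0702). Slbp (ENSMUSG00000004642, chr5:33634952-33652574), which binds the stem-loop of histone mRNAs, ran the other way. Its level was 44.7 and 40.9 CPM in CTR, 46.6 and 55.2 in OAT-1746, 42.02 and 42.1 in anti-PD-1 and 35.7, 39.7 and 41.1 in COMB. It was the only member whose OAT-1746 libraries both lay above both CTR libraries, although by little (0.25 ± 0.15, edgeR adjusted p = 0.267). Uhrf1, which recognizes hemimethylated DNA and recruits the maintenance methyltransferase, was at 17.5 and 17.2 CPM in CTR, 8.91 and 2.86 in OAT-1746, 10.3 and 14.5 in anti-PD-1 and 11.1, 13.0002 and 12.1 in COMB, lowest in both OAT-1746 libraries. Of this group only a promoter window of Uhrf1 (GRCm38.p6, chr17:56304063-56304362, plus strand) held an E2F word, upstream of the start and on the strand of the gene. That window is printed, and another Uhrf1 window in the RefSeq table held no such word.
Uhrf1: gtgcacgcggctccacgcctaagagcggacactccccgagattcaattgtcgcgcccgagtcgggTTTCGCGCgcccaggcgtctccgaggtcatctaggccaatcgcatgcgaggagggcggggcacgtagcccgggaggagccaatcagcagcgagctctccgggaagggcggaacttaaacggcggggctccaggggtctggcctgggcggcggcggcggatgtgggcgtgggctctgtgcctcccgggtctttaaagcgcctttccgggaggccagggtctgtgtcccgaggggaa
Chaf1b, the partner of Chaf1a, was at 10.5 and 7.47 CPM in CTR, 6.17 and 1.03 in OAT-1746, 6.202 and 8.96 in anti-PD-1 and 5.93, 11.4 and 11.1 in COMB, below CTR in both OAT-1746 libraries and lowest in replicate 2.

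The G1/S cyclins and E2F factors were 4 members with a median log2 fold change of −1.68 (−2.72 without OAT-1746 replicate 1 and −1.08 without replicate 2). All 4 were lower at an unadjusted p under 0.05, against 16.2% of all tested genes. E2f1 (ENSMUSG00000027490, chr2:154559407-154569892), an activator of the S phase program, was at 30.4 and 21.999 CPM in CTR, 12.3 and 6.01 in OAT-1746, 16.7 and 23.7 in anti-PD-1 and 18.3, 26.9 and 23.1 in COMB. The OAT-1746 libraries were lowest, and the log2 fold change was −1.51 ± 0.35 (edgeR adjusted p = 0.06199). E2f8 (ENSMUSG00000046179, chr7:48866429-48881596), a late repressor of the same targets, was at 10.5 and 8.18 CPM in CTR, 3.78 and 1.03 in OAT-1746, 5.37 and 8.85 in anti-PD-1 and 4.08, 5.48 and 5.25 in COMB, so that COMB also lay below CTR, while the log2 fold change for OAT-1746 was −1.96 ± 0.50 (edgeR adjusted p = 0.0695). The cyclin E genes Ccne1 (ENSMUSG00000002068, chr7:38097984-38107534) and Ccne2 (ENSMUSG00000028212, chr4:11191351-11204779) activate CDK2 at entry into S phase. Ccne1 was at 5.59 and 4.88 CPM in CTR, 3.201 and 1.09 in OAT-1746, 2.86 and 4.68 in anti-PD-1 and 5.27, 5.68 and 6.03 in COMB. Ccne2 was at 3.304 and 3.41 CPM in CTR, 1.57 and 0.286 in OAT-1746, 1.39 and 2.14 in anti-PD-1 and 2.003, 1.85 and 1.63 in COMB. The 2 genes differed in COMB, where Ccne1 overlapped CTR and Ccne2 lay below it, whereas in OAT-1746 both were low, at −1.29 ± 0.45 and −1.85 ± 0.61 (edgeR adjusted p = 0.0984 and 0.0893).

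**Figure D3:**
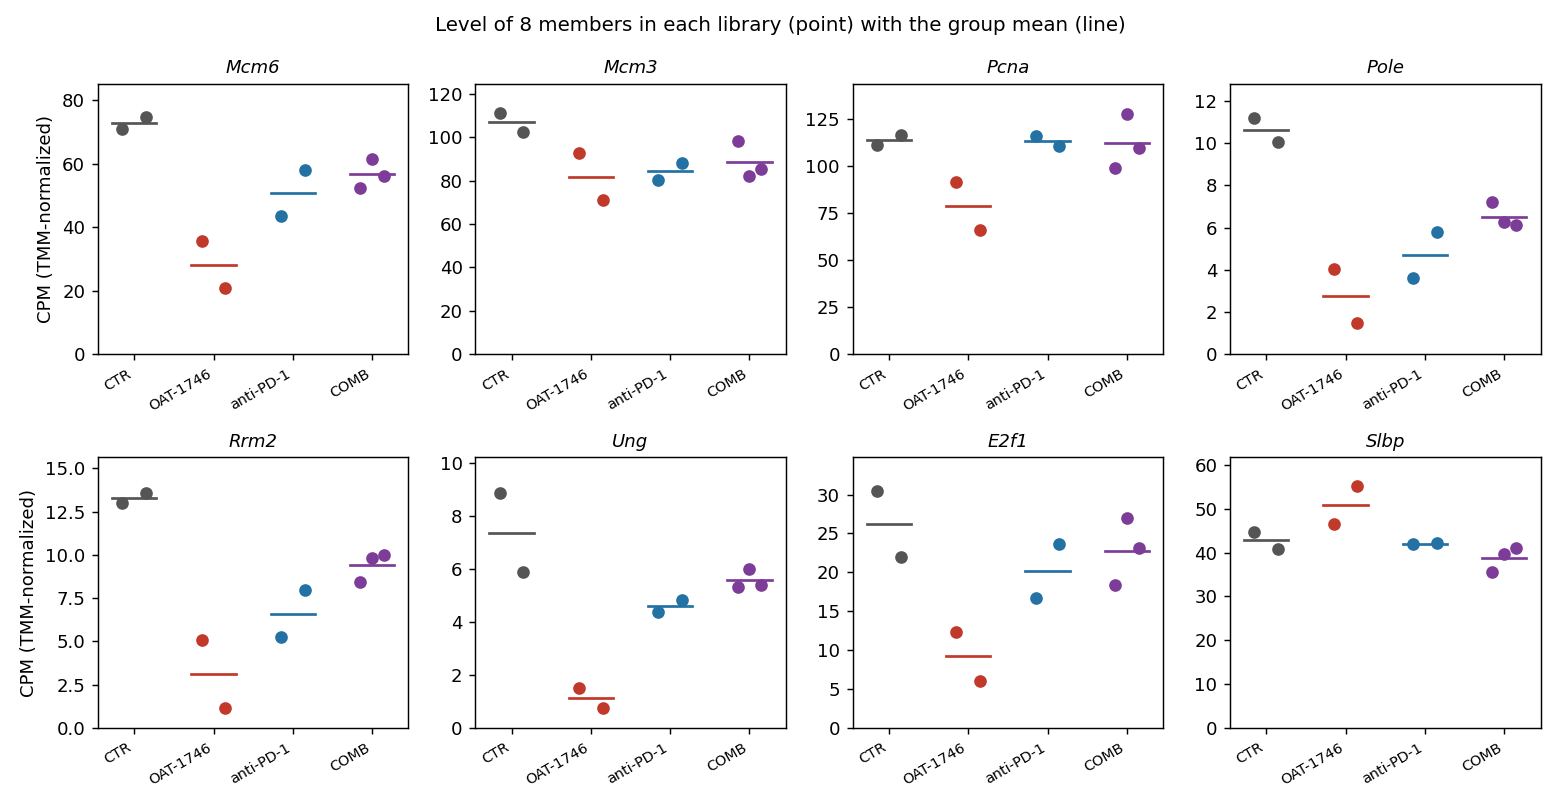
TMM-normalized CPM of 8 members, with a point for each library and a line at the group mean (n = 2, 2, 2 and 3). Mcm6, Rrm2, Ung and E2f1 are lowest in both OAT-1746 libraries, Pole is below CTR in every treated library, and Slbp is highest in OAT-1746.

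Levels between genes were compared as FPKM, which scales counts to exon length as well as to library size, averaged over the 9 libraries. Pcna stood highest at 43.96 FPKM, ahead of Mcm3 at 24.1, Fen1 at 14.7 and Mcm4 at 11.998. The subunits of the MCM ring spanned 4.59 (Mcm2) to 24.1 FPKM (Mcm3), although they act in equal numbers. At the low end were Mcm10 at 0.381, Pole at 0.555 and Ccne2 at 0.559 FPKM, with Orc1 at 0.1396. Of the members, 33 had a mean of at least 5 CPM and 10 of at least 30 CPM. The better expressed members tended to differ less between OAT-1746 and CTR. Across the 42 genes, Spearman's rho between the level in the COMB and anti-PD-1 libraries and the signed log2 fold change was 0.424. Since 40 of the 42 changes were negative, a positive rho means smaller decreases. Across all tested genes rho was −0.297, but 49.5% of those changes were negative, so that value does not measure their size. These genes share the same libraries and are not independent, so no p is given, and the cause was not tested.

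Whether adding the antibody to the inhibitor altered these genes was read from COMB against OAT-1746. No CTR level enters the difference, but all 9 libraries enter the estimate of the spread. Here 12 of the 42 members were higher in COMB at an edgeR adjusted p under 0.05, against 6.84% of all tested genes, and 0 were lower, against 8.94%. For 32 of the 42 all 3 COMB libraries lay above both OAT-1746 libraries, against 25% of all tested genes, and the median log2 fold change was 0.87. The called members came from licensing (Orc6, Gmnn, Mcm6 and Mcm7), the fork (Rfc4, Rfc5, Rpa2 and Fen1), nucleotide supply and repair (Rrm1, Tyms and Ung) and the E2F factors (E2f1). Ung was higher by 2.30 ± 0.35 on the log2 scale (edgeR adjusted p = 0.01605), Rfc4 by 1.34 ± 0.34 (adjusted p = 0.0361) and E2f1 by 1.31 ± 0.33 (adjusted p = 0.0356). Mcm6 was higher by 1.01 ± 0.23 (adjusted p = 0.0307), Gmnn by 1.16 ± 0.33 and Rfc5 by 1.05 ± 0.29. Rrm1 was higher by 0.52 ± 0.13 (adjusted p = 0.0373). Values for Tyms, Mcm7, Orc6, Fen1 and Rpa2 lay between 0.63 and 0.98. Slbp, the histone mRNA binder, was lower in COMB at −0.39 ± 0.14 without passing the adjustment (edgeR adjusted p = 0.0746). Mcm3 differed by 0.12 ± 0.16, and its sign turned without OAT-1746 replicate 2 (−0.05).

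The 12 calls depended on single libraries. They numbered 33 without OAT-1746 replicate 1 (31.4% of all tested genes), 1 without either CTR library (5.68% and 6.28%), 4 without either anti-PD-1 library (6.23% and 7.18%), 10 without COMB replicate 1 (23.5%), and 0 without OAT-1746 replicate 2, COMB replicate 2 or COMB replicate 3. Fitting only these 2 groups gave 0 calls. DESeq2 called 24 members, all higher, and 24.4% of all tested genes in either direction, and limma voom 16 members and 22.4% of all tested genes, where edgeR called 15.8%. Of the 12 members called by edgeR, DESeq2 called 12 and limma voom 9. The median log2 fold change of the members was 0.45 without OAT-1746 replicate 2 and 1.47 without replicate 1. Since this comparison and the one with CTR both use the OAT-1746 libraries, their opposite signs are not independent of each other.

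The antibody alone was compared with CTR. Between anti-PD-1 and CTR, 39 of the 42 members had a negative log2 fold change (36 with scaling by library size only), with a median of −0.38. At an unadjusted p under 0.05, 3 of the 42 were lower, against 1.94% of all tested genes, namely Pole (−1.16 ± 0.40), Tyms (−0.69 ± 0.29) and Rrm1 (−0.40 ± 0.14). None of the 3 passed the adjustment (edgeR adjusted p = 0.951 for each), and DESeq2 and limma voom likewise called 0 members. The antibody libraries differed from each other, with 36 of the 42 members lower in replicate 1 than in replicate 2. Of all tested genes, 48.8% were lower in replicate 2. Over all 42 the median difference was 0.37 on the log2 scale. The median was −0.20 without anti-PD-1 replicate 1 and −0.65 without replicate 2. The count of 3 became 0 without anti-PD-1 replicate 1 and 1 without CTR replicate 1. It was 6 without anti-PD-1 replicate 2 (2.74% of all tested genes), 13 without OAT-1746 replicate 1 (2.62%) and 15 without OAT-1746 replicate 2 (2.84%).

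The combination was compared with CTR in the same way. Between COMB and CTR, 32 of the 42 members had a negative log2 fold change (30 with scaling by library size only), with a median of −0.21. Without CTR replicate 1 the median was −0.06, with 25 of the 42 negative, and it was −0.30 without CTR replicate 2. At an unadjusted p under 0.05, 0 of the 42 were lower, against 3.37% of all tested genes, and edgeR, DESeq2 and limma voom called 0 members after adjustment. The count of lower members at an unadjusted p under 0.05 became 9 without OAT-1746 replicate 1 (4.90% of all tested genes) and 8 without OAT-1746 replicate 2 (4.18%), and without CTR replicate 1 there was 1 higher member (2.66%). The mean of COMB lay between those of OAT-1746 and CTR for 31 members and above that of CTR for 10. Rfc4, Rpa2 and Rfc3 were among the latter and E2f8 and Ccne2 among those below, as the levels given above show. Between COMB and anti-PD-1, the median was 0.19 (0.09 without anti-PD-1 replicate 1 and 0.37 without replicate 2), and 1 member, Rrm1, was higher at an unadjusted p under 0.05 (0.30 ± 0.13, edgeR adjusted p = 0.688), against 1.98% of all tested genes. This count of 1 was 0 without CTR replicate 2, anti-PD-1 replicate 1, COMB replicate 2 or COMB replicate 3. It was 4 without anti-PD-1 replicate 2 (1.29% of all tested genes) and 5 without OAT-1746 replicate 2 (3.23%). No member was called there by edgeR, DESeq2 or limma voom.

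Whether the effect of OAT-1746 differed with and without the antibody was tested as an interaction, the difference between COMB and anti-PD-1 minus the difference between OAT-1746 and CTR. The median over the members was 1.35 on the log2 scale, and 27 of the 42 were positive at an unadjusted p under 0.05, against 11.8% of all tested genes. With an edgeR adjusted p under 0.05 there was 1 member, Ung (2.97 ± 0.48, adjusted p = 0.0477), against 0.359% of all tested genes, or 45 genes. Of these 45, Ung was the only one with a positive interaction. DESeq2 called 18 members and 8.18% of all tested genes, and limma voom 7 members and 3.41%. The nucleotide group had the largest median, 2.01, followed by the G1/S group at 1.78, and helicase activation had the smallest, 0.83. This order changed without OAT-1746 replicate 1, where the nucleotide group had 3.27, chromatin 2.99, the G1/S group 2.74, helicase activation 1.81, licensing 1.71 and the fork 1.18. Without OAT-1746 replicate 2 the nucleotide group had 1.42, the G1/S group 1.21, licensing 0.92, chromatin 0.90, the fork 0.69 and helicase activation 0.64. Rrm2 had 2.61 ± 0.68 (edgeR adjusted p = 0.0975), Pole 2.41 ± 0.56 (adjusted p = 0.0847) and Mcm6 1.53 ± 0.34 (adjusted p = 0.0813). Leaving out OAT-1746 replicate 1 raised the count of called members to 30 (21.3% of all tested genes), leaving out COMB replicate 1 gave 2 (3.43%), and leaving out any other library gave 0. The median was 1.88 without OAT-1746 replicate 1 and 0.91 without replicate 2.

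The wider pathway was followed in 81 further genes in 7 lists, all of them tested. In OAT-1746 relative to CTR they had a median of −0.48 (−0.66 without OAT-1746 replicate 1 and −0.27 without replicate 2), less far from 0 than that of the members, with 32 lower and 4 higher at an unadjusted p under 0.05, against 16.2% and 16.1% of all tested genes. In COMB against OAT-1746, 10 were higher and 2 lower at an edgeR adjusted p under 0.05, against 6.84% and 8.94% of all tested genes. Together these 12 calls became 0 without COMB replicate 2 or COMB replicate 3, where 14 and 5 of all tested genes were called. Their number also moved when a CTR, OAT-1746 or anti-PD-1 library was left out, which leaves 1 library in that group. The 10 were Orc3, Pole2, Pole4, Rpa3, Rnaseh2a, Rnaseh2b, Shmt1, Nme1, Asf1b and Cdk4, and the 2 were Rrm2b and E2f3. Of the 10, Pole2, a subunit of the polymerase epsilon, differed most (1.83 ± 0.45), followed by Asf1b, Nme1 (1.19 ± 0.31) and Rpa3 (1.15 ± 0.30), and Orc3 least (0.51 ± 0.14), with Rnaseh2a (0.90), Shmt1 (0.90), Rnaseh2b (0.74), Pole4 (0.72) and Cdk4 (0.61) between. Asf1b, a histone chaperone of the fork, was at 12.6 and 9.35 CPM in CTR, 5.41 and 2.29 in OAT-1746, 9.13 and 9.58 in anti-PD-1 and 8.9003, 9.04 and 9.996 in COMB. It was low in both OAT-1746 libraries, with log2 fold changes of −1.51 ± 0.35 against CTR and 1.27 ± 0.33 for COMB against OAT-1746. E2f3, unlike E2f1, was at 16.6 and 19.8 CPM in CTR, 32.2 and 35.1 in OAT-1746, 19.7 and 24.8 in anti-PD-1 and 19.95, 18.5 and 18.999 in COMB. Its OAT-1746 libraries were the highest of the 9 and the log2 fold changes were 0.89 ± 0.17 and −0.81 ± 0.15 in the same 2 comparisons (edgeR adjusted p = 0.06101 and 0.0225). Rrm2b, the p53-inducible small subunit of ribonucleotide reductase that serves cells outside S phase, was at 16.5 and 18.9 CPM in CTR, 25.3 and 33.1 in OAT-1746, 14.6 and 17.9 in anti-PD-1 and 18.2, 19.1 and 19.5 in COMB, so that it ran opposite to Rrm2 (0.72 ± 0.19 and −0.63 ± 0.17, edgeR adjusted p = 0.0695 and 0.0403).

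Among the remaining named genes of these lists, Wdhd1 and Tipin of the fork, Mcm8, Ssrp1 and Tfdp1, the partner of E2F proteins, had values between −1.32 (Mcm8) and −0.51 (Ssrp1) in OAT-1746 against CTR, all at an unadjusted p under 0.05. Members of the CDK inhibitor families that brake G1 were split. Cdkn2a was lower and Cdkn2b higher in OAT-1746 at an unadjusted p under 0.05, both at no more than 2.06 CPM in any library, and Cdkn2b, close to the detection floor of the CTR libraries, was at 0.1201 and 0.118 CPM in CTR, 1.16 and 1.32 in OAT-1746, 1.32 and 0.564 in anti-PD-1 and 1.04, 0.6599 and 0.7798 in COMB. Cdkn1a, the most abundant of the brakes in every library, was at 262 and 312 CPM in CTR and 292 and 94.9 in OAT-1746. It was at 325 and 583 CPM in anti-PD-1 and 205, 252 and 252 in COMB. Thus OAT-1746 replicate 1 lay between the CTR libraries, and replicate 2 was the lowest library. The medians of the lists are followed here by the values without OAT-1746 replicate 1 and without replicate 2. The 12 brakes together had a median of −0.09 (−0.22 and 0.04), and the 9 further licensing genes, most of them subunits of the origin complex or kinases that act outside the E2F program as well, one of −0.16 (−0.33 and 0.02), so that in both lists the sign depended on replicate 2. The list of 10 further helicase and fork protection genes had a median of −0.57 (−1.13 and −0.42) and the 20 fork synthesis genes one of −0.56 (−0.82 and −0.33). Nucleotide metabolism (8 genes) had a median of −0.60 (−1.10 and −0.31), chromatin (7 genes) one of −0.50 (−0.63 and −0.31) and the G1/S drivers (15 genes) one of −0.78 (−0.92 and −0.37).

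Genes of mitosis accompanied the replication genes. A list of 32 G2/M genes summed to 296 and 315 CPM in CTR, 177 and 83.5 in OAT-1746, 156 and 226 in anti-PD-1 and 201, 234 and 227 in COMB. OAT-1746 replicate 2 was again lowest, but anti-PD-1 replicate 1 lay below OAT-1746 replicate 1. Relative to CTR their median in OAT-1746 was −1.48 on the log2 scale (−2.76 without OAT-1746 replicate 1 and −0.87 without replicate 2). There, 23 of 32 were lower at an unadjusted p under 0.05, against 16.2% of all tested genes. In COMB against OAT-1746 the median was 0.88 (1.97 without OAT-1746 replicate 1 and 0.30 without replicate 2), with 5 of 32 called higher, against 6.84% of all tested genes. These 5 calls became 4 without COMB replicate 1, where 2924 of all tested genes were called. They became 0 without COMB replicate 2 or COMB replicate 3 (14 and 5 genes). Their number also moved when a CTR, OAT-1746 or anti-PD-1 library was left out, which leaves 1 library in that group. Genes of protein synthesis had negative medians as well. In OAT-1746 against CTR, 79 ribosomal protein genes had a median of −0.76 (−0.98 without OAT-1746 replicate 1 and −0.54 without replicate 2) and 30 ribosome biogenesis genes one of −0.45 (−0.54 and −0.38 in the same order). Of these, 76 of the 79 and 16 of the 30 were lower at an unadjusted p under 0.05, against 16.2% of all tested genes. None passed the adjustment. Lower levels were thus not limited to genes of the cell cycle.

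**Figure D4:**
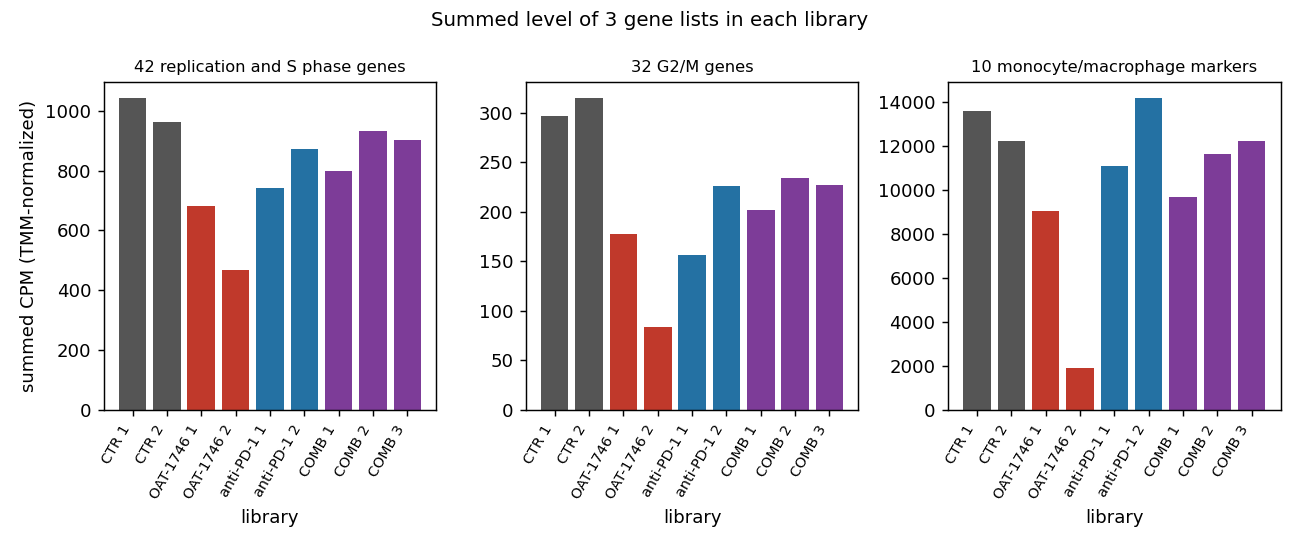
Bars are the summed TMM-normalized CPM of 3 gene lists in each of the 9 libraries, coloured by group, on axes that start at 0 and differ in scale. The 42 replication genes and the 32 G2/M genes are lowest in OAT-1746 replicate 2 (467 and 83.5 CPM), where the 10 monocyte and macrophage markers are also lowest (1893 CPM).

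Markers of cells within the CD11b+ gate differed in the same libraries and in both directions. Of the 10 monocyte and macrophage markers, 5 were lower in OAT-1746 than in the CTR libraries at an unadjusted p under 0.05, against 16.2% of all tested genes. Most of this lay in replicate 2, where their median log2 CPM minus the CTR mean was −2.42 with 10 of 10 below it, against −0.42 with 6 of 10 in replicate 1, and their most abundant gene was Tgfbi or Lyz2 in each library. Defining genes of microglia were higher. Tmem119 was at 1436 and 2509.6 CPM in CTR, 3342 and 4098 in OAT-1746, 2185 and 1982 in anti-PD-1 and 2795, 2401 and 2151 in COMB. P2ry12 was at 1376 and 2309 CPM in CTR, 3488 and 4726 in OAT-1746, 1802 and 1534 in anti-PD-1 and 2539, 1698 and 1612 in COMB. Both genes were highest in the OAT-1746 libraries, with replicate 2 above replicate 1, which is the reverse of the order of the replication genes in that group. With OAT-1746 each exceeded its CTR level, and each was lower in COMB than with OAT-1746 alone, at an unadjusted p under 0.05. A change in the make-up of the sorted cells and a change within them cannot be told apart here, and the part of cell composition in the result was not tested.

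Promoters were compared over the 36 members found in the RefSeq table, which had 41 windows of 300 bases. An E2F word was present in 13 of the 41 windows (31.7%), against 2.26% of all 32851 windows in the table and 3.78% of the 12787 windows of tested genes. CCAAT, a word bound by NF-Y, was present on either strand in 56.1% of the member windows, 37.4% of all windows and 37.37% of the windows of tested genes. TTTGAA, the core of the CHR element of G2/M genes, was present in 12.2%, 17.9% and 12.03%, so the members were close to the tested genes. The 13 members with an E2F word had a median of −0.85 on the log2 scale in OAT-1746 relative to CTR and the 23 without one −1.26, although the ranges of both sets overlapped widely. Both medians come from the fit of all 9 libraries, and values without single OAT-1746 libraries are not given for these sets. No window of the nucleotide or G1/S group held one, which says only that these letters are not in these 300 bases.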

How the data were processed

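The authors deposited raw counts of read pairs per gene. Per their methods, reads were trimmed (Trimmomatic), aligned to mm10 (STAR), marked for duplicates (Picard) and counted with HTSeq in reverse stranded mode at a mapping quality of 10 or more, so antisense genes are counted apart. The annotation release is not given in the sources used here. Genes were matched to GENCODE M21 (53620 of 53801). The 21890 protein-coding genes were filtered with filterByExpr (minimum count 10), which left 12538. edgeR 4.0.16 in R 4.3.3 fitted TMM-normalized counts of all 9 libraries with a mean per group (quasi-likelihood, two-sided). The 6 contrasts were adjusted separately by the Benjamini-Hochberg method. The alternatives included DESeq2 1.42.0 and limma 3.58.1 voom with quality weights, scaling, filters, a replicate block and leaving out each library. The steps were tested on simulated data. An exact permutation test cannot go below 0.333 (2 against 2) or 0.2 (2 against 3) and was not used. FPKM used union exon length, log2 CPM a prior count of 2. Members, gene lists and marker lists were chosen with earlier results of these data known. Members were named by a rule: in each role the one with the highest CPM and, among those with a mean of at least 5 CPM, the largest and smallest log2 fold change for OAT-1746 against CTR, plus Ccne1, Ccne2 and all with an adjusted p under 0.05. In the further lists, they were the 2 with the smallest p and those with an adjusted p under 0.05. Cdkn1a was added as the most abundant G1 brake. Other members and the marker genes shown alone were named after their values were seen. Promoters came from RefSeq (GRCm38.p6). Processed pseudogenes of Pcna and Tyms, and gene models overlapping Cdt1, Pole and Rrm1 on the same strand, could take or void some of their reads.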

Additional observations from a re-analysis of the deposited data

Results flagged for a closer look

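Ung differed between the effects of OAT-1746 with and without the antibody. The interaction was 2.97 on the log2 scale, past the adjusted threshold in edgeR's quasi-likelihood test (adjusted p = 0.0477). Without the antibody OAT-1746 differed from CTR by −2.70 ± 0.37, whereas with it the gene was at 5.34, 6.01 and 5.39 CPM in COMB and at 4.39 and 4.85 CPM in anti-PD-1. The edgeR adjusted p ranged from 0.00467 without OAT-1746 replicate 1 to 0.351 with the replicate block and was 6.80e-06 in DESeq2, the interaction itself from 2.57 to 3.57. The gene has 13 and 26 counts in the OAT-1746 libraries, so its level there is known only coarsely.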

How the results depend on the processing

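The negative median of the members in OAT-1746 against CTR, and the positive one in COMB against OAT-1746, held under every alternative run, while the number of calls did not. Counts below are members called, with all genes called in parentheses. In OAT-1746 against CTR, where edgeR called 0 (0), DESeq2 called 26 (1996), the fit with no low-count filter 15 (587), and an adjusted p under 0.1, chosen after seeing the data, 26 (2438). Leaving out 1 library gave 0 to 34 (0 to 3617), with a median from −1.58 to −0.72. In COMB against OAT-1746, where edgeR called 12 (1979), DESeq2 called 24 (3062), no low-count filter 20 (2263), limma voom 16 (2808), the adjusted p under 0.1 25 (3868), and only the groups compared 0 (30). Leaving out 1 library gave 0 to 33 (5 to 4033), with a median from 0.45 to 1.47. For the interaction, 1 (45) became 18 (1025) with DESeq2, 7 (428) with limma voom, 0 (24) with library size only, 2 (146) with no low-count filter, 0 (18) with all genes and 7 (550) with the adjusted p under 0.1. Leaving out 1 library gave 0 to 30 (0 to 2734), with a median from 0.91 to 1.88. In the other 3 contrasts no alternative called a member. All genes called rose from 0 to 14 in anti-PD-1 against CTR with DESeq2. In COMB against CTR they became 35 with DESeq2, 2 with limma voom, 2 with no low-count filter and 5 with only the groups compared. In COMB against anti-PD-1 they became 47 with DESeq2, 35 with limma voom, 2 with no low-count filter, 2 with only the groups compared, and 0 to 52 when 1 library was left out. The sign of Rfc3 in OAT-1746 against CTR turned with library size only (0.0550), without CTR replicate 1 (0.10) and without OAT-1746 replicate 2 (0.25), and that of Mcm3 in COMB against OAT-1746 without OAT-1746 replicate 2 (−0.0505), while leaving out 1 library gave −0.35 to 0.25 for the former and −0.05 to 0.33 for the latter. Among the values of named members, 364 kept their direction and side of the threshold and 46 crossed to a call in OAT-1746 against CTR. In COMB against OAT-1746 these numbers were 278 and 23, with 111 that lost a call, and in the interaction 344 and 36, with 10 that lost one. The interaction has no alternative with only the groups compared, since it uses all 4. A fit of fewer libraries also had fewer degrees of freedom, and the cause of the differences between settings was not tested.

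Libraries of the same replicate number had correlations of their deviations from the group mean of −0.349 to 0.0999 over 12 pairs. In groups of 2 libraries these values repeat, so they cannot settle whether the numbers pair the samples. The main fit did not use the numbers. With the replicate block, 0 (2) were called in COMB against OAT-1746 and 0 (0) in the interaction, and 0 in OAT-1746 against CTR. A library left alone in its group was assumed to vary like the other groups. Depth limits Orc1, Ccne2, Cdc6 and Mcm10 most, which have the fewest counts.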

Other observations

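The immediate early genes, which respond within minutes to stimulation or tissue handling, ran opposite to the replication genes in OAT-1746 against CTR, though not in COMB against CTR, where the replication genes had a median of −0.21 and none passed an unadjusted p under 0.05. The 11 genes summed to 12301 and 11768 CPM in CTR, 17512 and 24497 in OAT-1746, 11068 and 14389 in anti-PD-1 and 6246, 7068 and 7196 in COMB, highest in OAT-1746 and lowest in COMB. Their median log2 fold change was 0.74 between OAT-1746 and CTR (0.92 without OAT-1746 replicate 1 and 0.42 without replicate 2), −0.85 between COMB and CTR and −1.67 between COMB and OAT-1746, where 10 of the 11 were called lower at an edgeR adjusted p under 0.05, against 8.94% of all tested genes. The 10 calls became 3 without COMB replicate 2 and 2 without COMB replicate 3, where 14 and 5 of all tested genes were called. They stayed 10 without COMB replicate 1 (2924 genes). Their number also fell without OAT-1746 replicate 2, which leaves 1 library in that group. The relation of these values to the replication genes was not tested.

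Natural killer cell markers had an order of their own. The 9 genes summed to 48.7 and 44.3 CPM in CTR, 74.9 and 19.97 in OAT-1746, 273 and 145 in anti-PD-1 and 60.2, 133 and 143 in COMB, highest in the antibody libraries, where the replication genes lay between those of CTR and OAT-1746. Ribosomal protein genes summed to 54802 and 49532 CPM in CTR, 35682 and 26412 in OAT-1746, 49627 and 45130.0 in anti-PD-1 and 45183, 62771 and 53766 in COMB, and in COMB against OAT-1746 58 of the 79 were called higher, against 6.84% of all tested genes. These 58 calls became 67 without COMB replicate 1, 1 without COMB replicate 2 and 0 without COMB replicate 3. In the same fits 2924, 14 and 5 of all tested genes were called. Their number also moved when a CTR, OAT-1746 or anti-PD-1 library was left out, which leaves 1 library in that group.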
